A study of Mus musculus with 9 samples.

Results

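Cytochrome P450 enzymes were followed in hormone receptor positive (HR+) luminal cells of the mouse mammary gland through early pregnancy. Every probe on the array whose gene symbol begins with Cyp and a digit was taken, which gave 129 probes for 87 genes, out of 45281 probes and 19057 named genes. The cells came from female FVB mice of 9 to 11 weeks in 3 groups of 3 animals, with an array for each animal. The methods give 11 weeks for the virgin mice at injection and 9 to 11 weeks for the pregnant mice at mating, so the groups may differ in age. All mice received the DNA label EdU 24 hours before harvest. The paper describes the virgin mice as at metestrus, the phase after ovulation, and its methods give that phase for the injection. Pregnant mice were at day 3 or day 7 after timed mating. Live CD45-negative cells were sorted by CD24, CD49f, Sca1 and CD49b, and RNA equal to 167 of the 1000 sorted HR+ cells of an animal was amplified and hybridized. The gate rests on surface proteins, so it enriches for HR+ cells and cannot exclude others, and each array describes a single animal at a single time.

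Cytochrome P450 enzymes hold a heme group and use molecular oxygen to add an oxygen atom to their substrate. Those of families 1, 2 and 3 act mostly on drugs, dietary compounds, steroids and fatty acids, and are best known from the liver. Family 4 enzymes hydroxylate fatty acids and eicosanoids, and the remaining families make or break down cholesterol, bile acids, steroid hormones, vitamin D and retinoic acid. In the breast and mammary gland, P450 enzymes are known for local metabolism of estrogen and of carcinogens.

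The upstream sequences of the genes that changed are shown first, because they are where receptors for steroids and foreign compounds may bind. Promoter windows of RefSeq (build GRCm38.p6) were matched for 63 of the 87 genes and for 4 of the 5 genes called changed below, not for Cyp2d22. The 250 bases before the start of each gene are written 5′ to 3′ on the strand of the gene. Capitals mark 3 short motifs on either strand, namely GCGTG, the core bound by the aryl hydrocarbon receptor with Arnt, AGGTCA, a half-site of many nuclear receptors, and AGAACA, a half-site of progesterone and glucocorticoid receptors. Cyp3a57 and Cyp2s1 fell at day 3, Cyp2c70 rose at day 7, and Cyp4f13 was higher at day 7 than at day 3.
Cyp3a57 (chr5:145345019-145345268, plus strand): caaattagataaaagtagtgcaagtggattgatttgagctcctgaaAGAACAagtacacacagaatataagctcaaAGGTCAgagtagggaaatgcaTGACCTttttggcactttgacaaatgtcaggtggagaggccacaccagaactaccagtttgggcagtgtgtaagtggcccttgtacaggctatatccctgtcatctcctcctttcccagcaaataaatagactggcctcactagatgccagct
Cyp2s1 (chr7:25816526-25816775, minus strand): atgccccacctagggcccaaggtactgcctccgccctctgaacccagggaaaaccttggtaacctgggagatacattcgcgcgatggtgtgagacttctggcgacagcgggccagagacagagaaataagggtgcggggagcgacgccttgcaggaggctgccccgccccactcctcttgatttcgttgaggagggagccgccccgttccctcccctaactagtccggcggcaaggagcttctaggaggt
Cyp2c70 (chr19:40187287-40187536, minus strand): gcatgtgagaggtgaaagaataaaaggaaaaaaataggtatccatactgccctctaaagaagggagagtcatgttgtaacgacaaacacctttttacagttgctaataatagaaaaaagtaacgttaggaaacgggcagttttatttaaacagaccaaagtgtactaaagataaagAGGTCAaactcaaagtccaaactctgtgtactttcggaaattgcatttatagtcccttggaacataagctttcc
Cyp4f13 (chr17:32947362-32947611, minus strand): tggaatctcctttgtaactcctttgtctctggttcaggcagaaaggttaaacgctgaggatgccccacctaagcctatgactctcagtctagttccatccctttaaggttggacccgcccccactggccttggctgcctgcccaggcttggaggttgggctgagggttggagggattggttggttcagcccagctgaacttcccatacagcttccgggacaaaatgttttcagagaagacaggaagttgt

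The Cyp3a57 window held AGGTCA or its complement 2 times and AGAACA once, and the Cyp2c70 window held AGGTCA once. Neither the Cyp2s1 nor the Cyp4f13 window held any of the 3 motifs. No matches of different motifs shared letters in these windows. AGGTCA was found in 16 of the 71 P450 windows (22.5%) and in 14.0% of all 32851 windows of the same length. GCGTG was found in 15 P450 windows (21.1%), that of Cyp51 among them, and in 28.2% of all windows. AGAACA was found in 13 P450 windows (18.3%) and in 16.1% of all windows. These matches describe letters and were not tested for binding. The letters AGGTCA and AGAACA were chosen after the windows had been seen.

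Most P450 genes gave no signal above background in HR+ cells. Values are log2 normalized signals, and the background of the array is a signal of 100, which is 6.64 on this scale. Probes whose mean in any of the 3 groups reached that level were taken as above background, and 34 of the 87 genes did so (39.1%), through 40 of the 129 probes (31.0%). For comparison, 59.1% of all named genes, 41.3% of all probes and 45.6% of the probes with a single gene name reached it. By group, 27 P450 genes reached background in virgin mice (31.0%), 17 at day 3 (19.5%) and 22 at day 7 (25.3%), and 12 did so in all 3 groups. On each array 35.9% of all probes reached 100, and shares of all genes by group were not counted. Some genes barely passed the line in virgin mice only, such as Cyp2u1 (signal of 100.0), Cyp2e1 (100.5) and Cyp2c29 (101.4). Cyp20a1 did so only at day 3 (102.0). None of these genes at the line was called, and whether the counts by group differ was not tested. The signal passed 200 in at least 1 group for 7 genes, namely Cyp3a57, Cyp4f13, Cyp2s1, Cyp4v3, Cyp2d22, Cyp4f16 and Cyp2c70, and 400 for Cyp3a57 and Cyp4f13. In 17 of the 34 genes the highest group mean stayed under 110, so they lie at the edge of detection. The 53 genes below background had group means from 6.09 to 6.63, around the median of all probes of 6.53, and 17 of them had single arrays above the line. Just below it were Cyp3a16 and Cyp2a5 with highest group means of 6.62 and 6.63, and just above it were Cyp2u1, Cyp2e1 and Cyp2d10 with 6.64, 6.65 and 6.66.

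**Figure D1:**
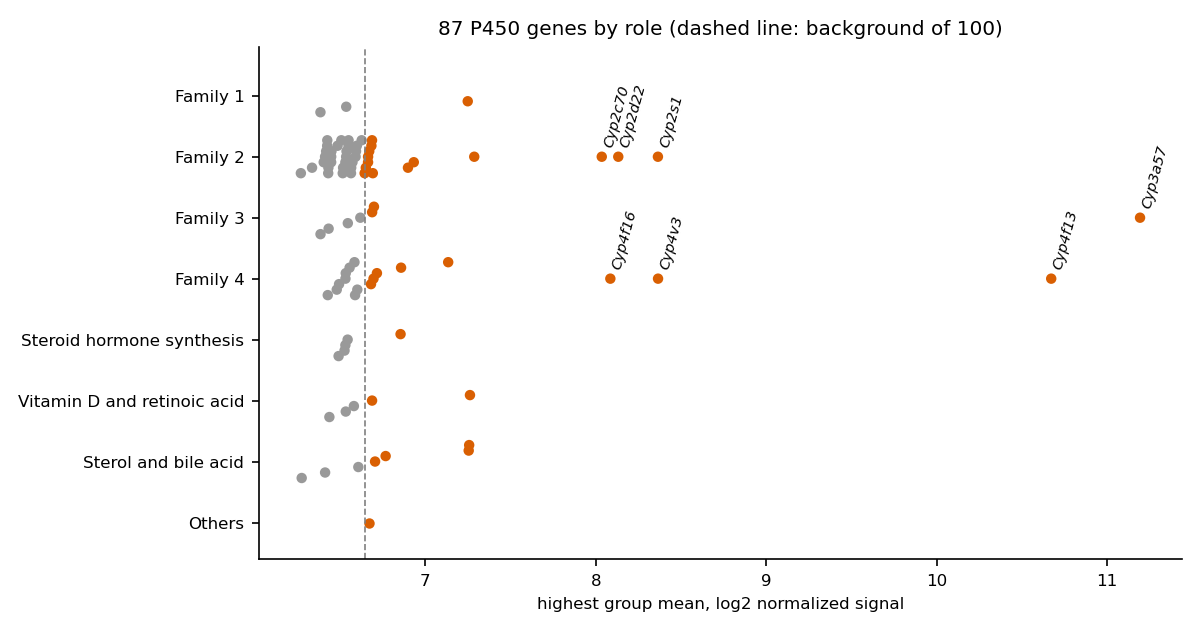
Highest group mean of each of the 87 P450 genes (log2 normalized signal, horizontal axis) by role (rows), with 1 point per gene, orange at or above the background of 100 and grey below it. Most points crowd at the dashed line at 6.64, and the 7 labeled genes, which passed a signal of 200, stand to the right of it.

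Few P450 genes were called changed, at shares near those of all named genes, and these changed in different directions. To be called, a gene needed a probe with at least a 2-fold difference and an adjusted p of at most 0.10 in limma, which fits all probes above background and all 9 arrays together. At day 3 against virgin, 3 of 34 genes were called (8.82%), all lower, namely Cyp3a57, Cyp2s1 and Cyp2d22, beside 6.12% of all named genes (2.97% higher and 3.15% lower). At day 7 against virgin, 2 of 34 were called (5.88%), Cyp2c70 higher and Cyp3a57 lower, beside 7.57% of named genes (3.71% higher and 3.86% lower). Between the pregnant groups Cyp2c70 and Cyp4f13 were higher at day 7, again 2 of 34 (5.88%), beside 5.04% of named genes (2.75% higher and 2.29% lower). No P450 gene was called higher at day 3 in limma (0 also in Cyber-T). On the adjusted p alone, 6 genes passed at day 3 (17.6%), 9 at day 7 (26.5%) and 4 between the days (11.8%), beside 25.1%, 28.8% and 22.3% of named genes. The groups did not overlap for 9, 13 and 11 of the 40 probes in these comparisons (22.5%, 32.5% and 27.5%), beside 33.1%, 32.6% and 33.0% of all probes tested. The median log2 difference of the P450 probes was -0.08 at day 3, -0.05 at day 7 and 0.05 between the days, and that of all tested probes was -0.01 in each. Comparisons of each day with virgin share the virgin arrays, and probe sequences were not analysed here, so near-identical family members may share a signal.

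**Figure D2:**
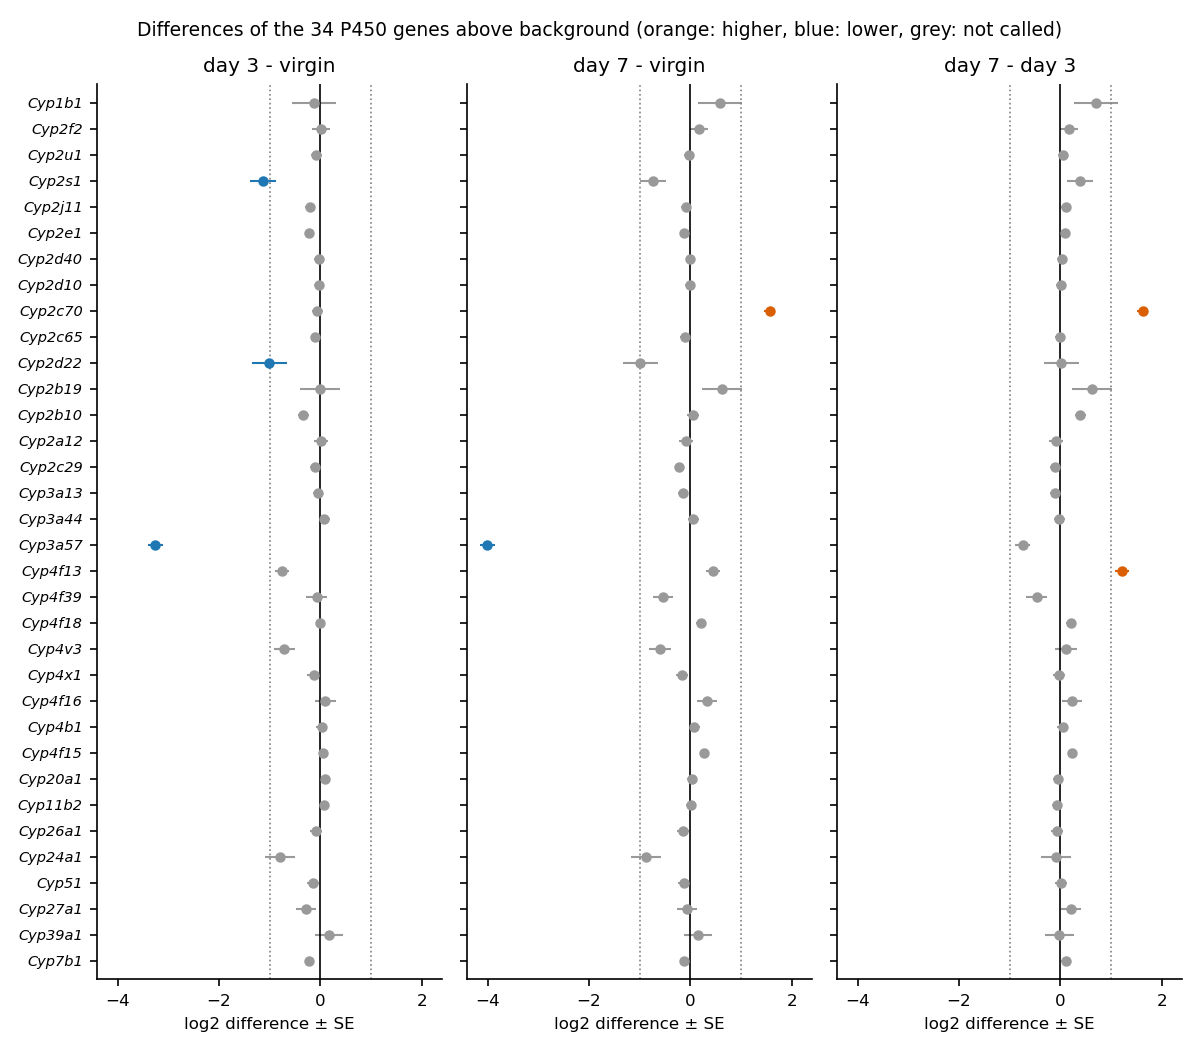
Log2 differences with their SE (horizontal axes) of the 34 P450 genes above background (rows, ordered by role), in 3 panels for day 3 minus virgin, day 7 minus virgin and day 7 minus day 3. Orange points were called higher, blue points lower and grey points were not called, dotted lines mark a fold of 2, and Cyp3a57 lies far to the left at -3.26 and -4.00.

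In family 3, whose enzymes oxidize drugs and steroids, Cyp3a57 fell strongly at both days of pregnancy. Its log2 signal was 11.46, 11.07 and 11.05 in the virgin mice, 8.12, 7.87 and 7.82 at day 3, and 7.08, 7.39 and 7.11 at day 7. The 3 groups did not overlap, and the animals of a group lay close together (11.19 ± 0.23, 7.94 ± 0.16 and 7.19 ± 0.17, SD, n = 3). At day 3 the log2 signal fell by 3.26 (SE 0.15, adjusted p = 1.07e-05 in limma), to a level 9.57-fold lower. At day 7 it fell by 4.00 (adjusted p = 1.40e-06), to a level 16.0-fold lower. The further difference from day 3 to day 7 was -0.74 (adjusted p = 0.0124), below the fold of 2 that a call needs. Every array of Cyp3a57 stayed above background, so these folds are measured on both sides.

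The other genes of family 3 were at or below background. Cyp3a13 and Cyp3a44 had group means between 6.54 and 6.70, and no comparison of theirs was called. Cyp3a11, the main form of mouse liver, and Cyp3a16, Cyp3a25 and Cyp3a41b had no group mean above 6.62. Cyp3a57 lies on chromosome 5 next to Cyp3a16, Cyp3a41b and Cyp3a41a, and of these neighbors the first and second were among the genes below background. Liver genes were mostly too weak to be followed beside it. Alb, Apoa1, Apob and Fgb were below background in every group, so a change in them could not be seen. Of 7 hepatocyte markers, the 3 that were tested (Ttr, Serpina1a and Ahsg) were not called in any comparison. The summed signal of all 7 was 638.3 to 662.6 in virgin mice, 622.6 to 661.7 at day 3 and 635.6 to 664.1 at day 7. The part of liver cells in the result was not tested.

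In family 2, the largest P450 family of the mouse, 14 of 42 genes reached background and 3 were called. Cyp2s1, an enzyme of epithelia outside the liver that acts on retinoic acid and fatty acid products, fell at day 3. It measured 8.74, 7.95 and 8.40 in virgin mice, 7.05, 7.36 and 7.29 at day 3, and 7.20, 7.53 and 8.15 at day 7. All day 3 animals lay below all virgin animals, while 1 animal at day 7 overlapped the virgin range. The decrease at day 3 was 1.13 on the log2 scale (SE 0.26, adjusted p = 0.0205), which is 2.19-fold. At day 7 the difference was -0.74 (adjusted p = 0.0901), below a fold of 2, and under median scaling it was -0.25 (adjusted p = 0.547). The call at day 3 was lost under median scaling (-0.67) and without virgin replicate 1 (-0.94).

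Cyp2d22, a family 2D member of the group that in humans holds the drug-metabolizing CYP2D6, stood at the threshold. Its signal was 8.23, 8.06 and 8.11 in virgin mice, 7.61, 7.17 and 6.60 at day 3, and 6.88, 7.95 and 6.60 at day 7. The virgin animals were close together and above all pregnant ones, which were spread out and had 1 animal of each group below background. The difference was -1.01 at day 3 (SE 0.35, adjusted p = 0.0946), which was called, and -0.99 at day 7 (adjusted p = 0.0920), which was not. These values are near each other, and day 7 minus day 3 was 0.02. The other probe of Cyp2d22 was below background in every group (means of 6.40, 6.40 and 6.39) and was not tested. The call at day 3 was lost under median scaling (-0.53), under cyclic loess (-0.95), with no filter (adjusted p = 0.177) and at a threshold of 0.05. It was also lost without any 1 of the 3 virgin arrays (-0.96 to -1.05, adjusted p 0.157 to 0.177 in limma), day 3 replicate 2 or 3 (-1.03 and -0.74) or day 7 replicate 1 (adjusted p = 0.116), and at day 7 a call was gained with the quantile normalization computed here (-1.04), with normexp (-1.16) and without day 7 replicate 2 (-1.39).

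Cyp2c70, which hydroxylates bile acids to muricholic acids in mouse liver, appeared at day 7. It was below background on all arrays of virgin mice (6.46, 6.54 and 6.41) and of day 3 (6.45, 6.29 and 6.49), and measured 8.10, 7.86 and 8.15 at day 7. The day 7 animals stood clear of the other 6. The log2 difference was 1.57 against virgin (SE 0.11, adjusted p = 4.62e-05) and 1.62 against day 3 (adjusted p = 0.00016). Since both other groups lay below the background of 100, the signal was at least 2.62-fold higher at day 7. Its neighbors on chromosome 19, Cyp2c37, Cyp2c54 and Cyp2c50, had group means of 6.35 to 6.55 and stayed below background. As given for Cyp3a57, the hepatocyte markers above background were not called, and the others were too weak to follow. Red cell genes did move, with a summed signal of 5 erythroid markers of 524.7 to 542.5 in virgin mice, 971.9 to 1332 at day 3 and 1909 to 6242 at day 7. The sum of 9 basal cell markers was 903.7 to 1872, 1534 to 4793 and 3342 to 13470. Its virgin and day 3 ranges overlapped, and the day 7 animals were spread out. Of the 6 basal markers tested, only Krt17 was called at day 3, and only Krt17 and Trp63 at day 7 against virgin. Krt5, Myh11 and Oxtr of the basal list were below background in every group, and the part of these cells in the result was not tested. In such sorted pools, fewer cells of a type and less RNA per cell cannot be told apart.

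The remaining family 2 genes were weak. Cyp2f2, a naphthalene-metabolizing enzyme known from the airways, was above background on all arrays, with means of 7.11 ± 0.11, 7.12 ± 0.05 and 7.29 ± 0.39 (SD, n = 3) in virgin, day 3 and day 7 mice. Cyp2b10, a drug-inducible enzyme, had a mean of 6.84 in virgin mice, 6.51 at day 3 and 6.90 at day 7 on its brighter probe. Its difference of -0.34 at day 3 passed the adjusted p alone (0.0755), as did the difference of 0.39 between the days (0.0518), and its other probe gave 0.01 and 0.04. Cyp2b19, an arachidonic acid epoxygenase of skin, reached background through 1 animal at day 7 (6.42, 6.30 and 8.07). Its other probe read 6.38 in that animal and was below background in every group. Cyp2a12, Cyp2c29, Cyp2c65, Cyp2d10, Cyp2d40, Cyp2e1, Cyp2j11 and Cyp2u1 had group means between 6.43 and 6.69, and none of these 8 genes passed the adjusted p in any comparison.

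In family 4, whose members hydroxylate fatty acids, leukotrienes and related lipids, 8 of 17 genes reached background, and Cyp4f13 was called. Its values were 10.36, 10.12 and 10.21 in virgin mice, 9.44, 9.27 and 9.69 at day 3, and 10.84, 10.69 and 10.49 at day 7. The groups did not overlap, with day 3 lowest and day 7 highest. From day 3 to day 7 the signal rose by 1.21 on the log2 scale (SE 0.14, adjusted p = 0.00108), which is 2.31-fold. The differences from virgin passed the adjusted p but not the fold, with -0.76 at day 3 (0.00674) and 0.44 at day 7 (0.0579). Under median scaling these became -0.05 and 1.07, so that Cyp4f13 was called higher at day 7 against virgin and its difference at day 3 nearly vanished, while the difference between the days was 1.12.

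Day 3 was also the low point of 2 lists of markers of other cells. The summed signal of 10 HR- luminal markers, led by Mfge8 and Csn3, was 21520 to 32370 in virgin mice, 10350 to 14570 at day 3 and 18070 to 29880 at day 7. That of 8 macrophage markers was 1534 to 2553, 912.1 to 1166 and 1719 to 2290. Of the 5 macrophage markers tested, only Lyz1 and Lyz2 were called, lower at day 3 and higher from day 3 to day 7. Csf1r, C1qb and Cd14 were called in no comparison. The HR- markers did not move as one. Csn3 stayed low at day 7 (means of 12.30, 9.51 and 9.61). There the milk protein genes Csn2 (6.45, 6.59 and 8.99) and Wap (6.34, 6.47 and 7.62) rose, as Cyp2c70 did. Elf5, Kit, Aldh1a3 and Ltf were tested and called in no comparison. By qPCR, the paper found Elf5 in its sorted HR- cells and describes no contamination of the HR+ cells by them. Itga2 and Lalba of the HR- list, and Adgre1, C1qa and Mrc1 of the macrophage list, were below background in every group. The part of these cells in the values of Cyp4f13, Cyp2s1 and Cyp2c70 was not tested. All 8 matched HR+ markers, among them Esr1, Pgr and Foxa1, were above background in at least 1 group, with a sum of 32330 to 46130, 29820 to 31120 and 25210 to 26030 that did not overlap between the groups. Among them Pgr fell at both days (means of 9.31, 8.13 and 8.18) and Foxa1 at day 7 (10.31, 10.16 and 9.06), while Tnfsf11 rose at both days (6.59, 8.83 and 10.62) and Cited1 at day 3 (7.80, 9.16 and 8.13). The sums of 9 fibroblast markers (2799 to 3616, 3292 to 3822 and 1200 to 1434) were lower at day 7. Of the 6 tested, Dcn was called lower at day 7 against virgin and against day 3. Fbln1 was called higher at day 3 against virgin and lower from day 3 to day 7. The median log2 difference of the 6 at day 7 against virgin was 0.04. Sums were 786.1 to 895.0, 812.5 to 883.0 and 917.2 to 1227 for 8 endothelial markers. They were 581.1 to 1033, 594.1 to 737.0 and 545.6 to 845.2 for 6 adipocyte markers. For 6 lymphocyte markers they were 512.6 to 651.8, 535.6 to 548.5 and 485.8 to 535.0. No gene of the endothelial, adipocyte or lymphocyte list was called.

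Cyp4f16 was measured by 3 probes above background, and these differed. The brightest read 7.30, 7.91 and 8.05 in virgin mice, 8.03, 7.53 and 7.99 at day 3, and 8.06, 8.14 and 8.06 at day 7, with a difference of 0.33 at day 7 (SE 0.20, adjusted p = 0.314) that became 0.78 under median scaling (adjusted p = 0.0459). A second probe gave 0.52 at day 7 (adjusted p = 0.0221), below a fold of 2, and the third gave -0.19 (adjusted p = 0.314). Cyp4v3, the counterpart of the human CYP4V2 that is mutated in Bietti crystalline dystrophy, had 8.33, 8.50 and 8.27 in virgin mice, 7.69, 7.26 and 8.02 at day 3, and 7.87, 7.40 and 8.03 at day 7. Both pregnant groups lay below the virgin range, with differences of -0.71 at day 3 (SE 0.21, adjusted p = 0.0589) and -0.60 at day 7 (0.0936), neither reaching a fold of 2, and of -0.18 and -0.10 under median scaling.

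The other 5 genes of family 4 were closer to background. Cyp4f39, a hydroxylase of very long fatty acids of the skin barrier, had means of 7.13 ± 0.49, 7.06 ± 0.03 and 6.60 ± 0.06 (SD, n = 3), and its difference of -0.54 at day 7 did not pass (adjusted p = 0.112). Cyp4f15 moved within a narrow range, from 6.43 ± 0.03 in virgin mice to 6.70 ± 0.05 at day 7, a difference of 0.27 that passed the adjusted p alone (0.0456). Cyp4f18, Cyp4b1 and Cyp4x1 had group means of 6.47 to 6.86 and passed in no comparison. Cyp4f13, Cyp4f15, Cyp4f16 and Cyp4f39 lie on chromosome 17, and Cyp4f14, the direct neighbor of Cyp4f13, was below background.

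**Figure D3:**
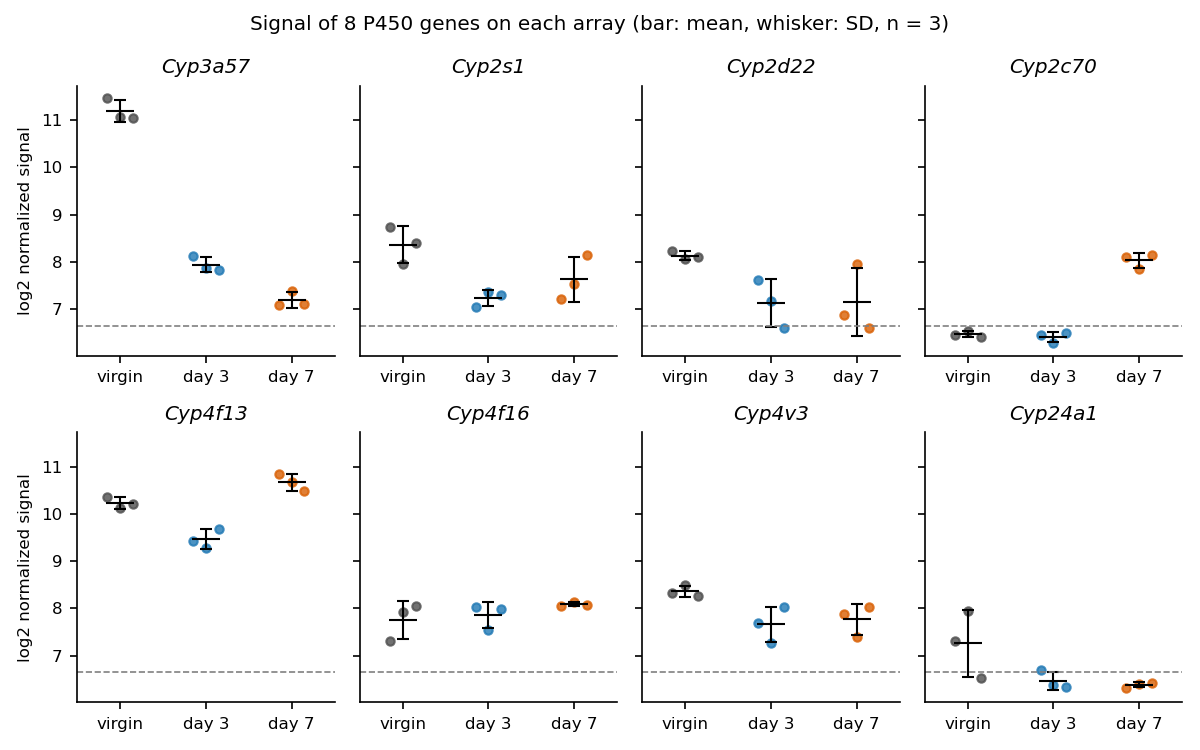
Log2 normalized signal (vertical axes) of 8 P450 genes on each of the 9 arrays (points), by virgin, day 3 and day 7 groups, with the mean as a bar and the SD as whiskers (n = 3), and the background of 100 as a dashed line. Cyp3a57 drops from 11.19 to 7.94 and 7.19, Cyp2c70 leaves background at day 7 with 8.04, and Cyp24a1 is spread out among the virgin animals.

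Among the enzymes of sterols and bile acids, 4 of 7 genes reached background and none was called. Cyp27a1, the mitochondrial sterol 27-hydroxylase, was above background on all arrays with its brightest probe, at 7.11 ± 0.38, 6.83 ± 0.18 and 7.04 ± 0.21 (SD, n = 3), and its other 2 probes were not called either. Cyp39a1, which hydroxylates oxysterols, had 7.08 ± 0.66 in virgin mice, where the animals ranged from 6.52 to 7.82, and 7.25 ± 0.13 and 7.24 ± 0.17 in the pregnant groups. Cyp51, the demethylase of lanosterol in cholesterol synthesis, and Cyp7b1, another oxysterol hydroxylase, had group means between 6.55 and 6.77. Cyp7a1, the rate-limiting enzyme of bile acid synthesis, Cyp8b1 and the brain enzyme Cyp46a1 were below background.

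Of the enzymes that make steroid hormones, 1 of 5 reached background. Cyp11a1, which starts steroid synthesis from cholesterol, Cyp11b1, Cyp17a1 and Cyp21a1 had no group mean above 6.54. Cyp11b2, the aldosterone synthase, was slightly above background on all arrays, with means of 6.78, 6.85 and 6.78 that differed by at most 0.08. Cyp19a1, the aromatase, was not analysed here. In family 1, Cyp1b1, which hydroxylates estrogens and carcinogens, had 6.62, 6.83 and 6.55 in virgin mice, 6.49, 6.54 and 6.58 at day 3, and 6.50, 8.50 and 6.75 at day 7. Its high mean at day 7 rests on a single animal, the difference of 0.58 was not called (SE 0.43, adjusted p = 0.406), and Cyp1a1 and Cyp1a2, both targets of the aryl hydrocarbon receptor, were below background.

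Cyp24a1, which inactivates vitamin D, was seen mainly in virgin mice. Its signal was 7.30, 7.95 and 6.53 in virgin mice, 6.69, 6.38 and 6.32 at day 3, and 6.32, 6.40 and 6.43 at day 7. The third virgin animal was below background, as were all day 7 animals. The difference at day 7 was -0.88 (SE 0.30, adjusted p = 0.0788), which missed the fold of 2, and at day 3 it was -0.80 (0.116). It was called at day 7 with normexp background correction (-1.08) and, at both days, without virgin replicate 3 (-1.24 at day 7), while without virgin replicate 2 the difference at day 7 shrank to -0.53 (adjusted p = 0.149 in limma). Cyp26a1, which clears retinoic acid, had means of 6.69, 6.61 and 6.54. Cyp2r1, Cyp27b1, which activates vitamin D, and Cyp26b1 were below background. Cyp20a1, an orphan enzyme with no settled substrate, had means of 6.58, 6.67 and 6.62.

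Genes that serve or regulate P450 enzymes were counted in the same fit. Of 7 electron donor genes above background, none was called against virgin. Cyb5r1, a cytochrome b5 reductase, fell by 1.19 from day 3 to day 7 (SE 0.17, adjusted p = 0.00277). Por and Fdxr of that list matched no named probe and were not measured here, and Fdx1 was below background. Of 11 genes of heme synthesis and breakdown, Blvrb, a biliverdin reductase, fell by 1.30 at day 7 (SE 0.14, adjusted p = 0.000519) and none was called at day 3 or between the days. Of 12 receptors and partners that induce P450 genes, Arnt, the partner of the aryl hydrocarbon receptor, fell by 1.42 at day 3 (SE 0.20, adjusted p = 0.00208). At day 7 the same gene fell by 1.83 (adjusted p = 0.000478). This was its brightest probe, and its 4 dimmer probes, all with group means of 6.84 or less, were not called. Ahr itself and Nr1i2, the receptor that induces Cyp3a genes in liver, were below background. The P450 relatives Tbxas1 and Ptgis, which make thromboxane and prostacyclin, were not called in any comparison.

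Pathways that adjoin the P450 reactions showed scattered changes. Of 15 cholesterol synthesis genes, Msmo1, which acts later than Cyp51 in the removal of methyl groups, fell by 1.61 at day 3 and by 1.25 at day 7. Hsd17b7, which acts in the same series of steps, rose by 1.04 at day 3, Sqle fell by 1.01 at day 7, and Lss rose by 1.01 between the days. Of 8 retinoid genes, Aldh1a7, a relative of the retinaldehyde dehydrogenase Aldh1a1, rose by 2.66 at day 7 and by 1.71 from day 3 to day 7. Of 12 genes of steroid synthesis and conversion, Tspo, a protein of the outer mitochondrial membrane, fell by 1.27 at day 3. Hsd11b2, which inactivates glucocorticoids and had a virgin mean signal of 94.1, just below background, rose by 1.39 at day 7 against virgin and by 1.17 against day 3, where Stard3 rose by 1.47.

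Enzymes that act on epoxides or conjugate the products of P450 enzymes formed the longest of these lists. Of 21 genes, Fmo1, a flavin monooxygenase that oxidizes drugs without heme, rose by 3.51 at day 3 and fell by 2.89 from day 3 to day 7. Ephx1, the microsomal epoxide hydrolase, fell by 1.28 at day 3 and by 1.30 at day 7. At day 7 the sulfotransferase Sult1a1, with a virgin mean signal of 97.3 just below background, rose by 2.19 and the glutathione transferase Gsta4 by 1.95, while Gstm2, Gstt1 and Gstt3 fell by 1.55, 1.12 and 1.00. Between the days Gsta4 and Sult1a1 rose by 1.92 and 1.53, and Gstm2 fell by 1.17. Of 7 eicosanoid genes, Alox12, a lipoxygenase of arachidonic acid, fell by 1.20 at day 3 and by 1.12 at day 7 to the level of background. Under median scaling 14 of the 29 calls of these genes were lost, those of Blvrb, Sqle, Lss, Gstt1, Gstt3 and Tspo, of Msmo1, Ephx1 and Alox12 at both days, of Arnt at day 3 and of Gstm2 at day 7 against virgin. Over all 22 alternatives, single arrays left out included, the call of Sqle was lost in 8, that of Gstt3 in 6, those of Hsd17b7 and Lss in 4 each, those of Alox12 in 2 at each day and that of Msmo1 at day 7 in 2. Without virgin replicate 3 the difference of Hsd17b7 was 0.69, and without virgin replicate 1 the difference of Sqle was -0.57.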

How the data were processed

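The P450 genes and all gene lists were chosen with earlier results of these data known. The authors deposited a table of raw intensity per probe, before log transformation and normalization, and a table of log2 values that they quantile normalized in Partek Genomics Suite. The software that summarized beads to probes is not given in the sources used here. The log2 values deposited by the authors were used, and a quantile normalization of the intensities computed here differed from them by 0.0239 on average and by 0.118 at most. Quantile normalization gives every array the same distribution, so a shift shared by most genes cannot be seen.

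Genes were named from the platform annotation, updated through Entrez identifiers (34885 probes with 1 gene, 18 with several, 10378 unnamed here). Probes with a group mean of at least 100 (18707) were fitted in limma 3.58.1 (R 4.3.3) with all 9 arrays, and p-values were adjusted over all of them by Benjamini-Hochberg. Calls needed a 2-fold difference and an adjusted p of at most 0.10 on any probe, and a gene is given by its brightest probe. Where all arrays of a group lay below 100, a fold is the lower bound against 100, from group means of log2 values. The number of arrays limits the precision. Raw mean intensities were 284 to 316 in virgin mice and 348 to 520 on all 6 pregnant arrays, and 28.1 to 48.4% of raw values reached 100. In comparisons with virgin mice, the raw brightness of the arrays and pregnancy cannot be told apart.

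Every P450 gene above background is named, with all arrays for those called in the fit or under another normalization. Besides them, 9 lists of genes that adjoin P450 reactions (electron donors, heme, receptors, relatives with other names, cholesterol, retinoids, steroids, epoxides and conjugation, eicosanoids) and 10 lists of cell type markers were counted, and no test was run over a list. Alternatives were another quantile normalization, median scaling, cyclic loess, normexp background (offset 50), no filter, a filter on all 3 arrays, Cyber-T, fits of 2 groups, an intensity trend, 1 probe per gene, a replicate block, other thresholds and each array left out. Columns for a detection p hold no values. Promoters are from RefSeq, GRCm38.p6. Plots used Python 3.11.15 and matplotlib 3.10.9.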

Additional observations from a re-analysis of the deposited data

Results flagged for a closer look

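For 2 P450 genes the differences from virgin mice at day 3 and day 7 were at least 2-fold apart with an adjusted p of at most 0.10. This is the limma comparison of day 7 against day 3 given above, since the virgin arrays are shared, and no further evidence. Cyp3a57 (-0.74) and Cyp2b10 (0.39) passed the adjusted p alone. For Cyp2c70 the effects differed by 1.62 on the log2 scale (SE 0.11, adjusted p = 0.00016), with all 3 day 7 animals above all 3 day 3 animals, and the fold between the days is at least 2.62. Cyp2c70 was tested only because its day 7 mean passed background, and the other 2 groups lay below it, so its log2 value is no exact size. For Cyp4f13 they differed by 1.21 (SE 0.14, adjusted p = 0.00108), again with no overlap of the animals. Groups of 3 arrays were too small to test single arrays as outliers, so the high arrays of Cyp1b1 and Cyp2b19 at day 7 are given as values only.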

How the results depend on the processing

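The calls of Cyp3a57 at both days, of Cyp2c70 at day 7 against both groups and of Cyp4f13 between the days were kept under all 22 alternatives that were run, and no call of a P450 gene changed sign. At day 3 against virgin the count of 3 genes became 1 under median scaling, where Cyp2s1 and Cyp2d22 were lost, and 6 with no minimum fold. Leaving out 1 array gave 1 to 3 genes, with 1 left without virgin replicate 1. At day 7 the count of 2 became 4 with normexp background, 9 with no minimum fold and 2 to 3 with 1 array left out. Between the days it became 4 with no minimum fold and stayed at 2 to 2 with 1 array left out. The 34 genes above background became 17 when all 3 arrays of a group had to reach 100, and 31 to 34 with 1 array left out. Apart from the looser fold and filter, the cause of these shifts was not tested. With the replicate number as a block the counts were 3, 2 and 2, and no call of a P450 gene changed. The numbers did not pair the animals, since same-numbered arrays of different groups had deviations that correlated between -0.05 and 0.07. Median scaling moved the median of all tested probes to 0.21 at day 3 and 0.18 at day 7 and turned 94.5% and 88.4% of the called genes to higher, against 48.5% and 49.0%. The slide as a block was not run, because no label or header names the chip. Signals under 100 limit what can be said of the 53 genes below background.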
